A study of Mus musculus with 2688 samples.

Results

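Microglia of the spinal cord were compared with microglia of the cerebellum in CD1 mice at 16 weeks of age. The labels assigned 380 sorted wells of 1 plate to these 2 groups, and 348 of them were kept as cells, out of 2402 kept cells in the whole series. They formed 8 of the 51 region samples of the series, a region sample being the cells of 1 region that carry 1 replicate number: 4 of spinal cord with 47, 44, 42 and 32 cells and 4 of cerebellum with 47, 45, 47 and 44 cells. Cells were chosen by the group and replicate in the labels, after the counts of other wells had been taken out of plate columns 1 and 2, and a well had to show at least 500 genes and at most 20% of counts from mitochondrially encoded genes.

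Both groups carry the label WT and share strain, age and plate. The mice had been perfused, the tissue homogenised and the cells enriched on a density gradient, and single cells had been sorted into wells after staining for CD11b, CD45, Ly6C, Ly6G and CD206. Full-length libraries were made with SmartSeq2. By its design text the series had 3 to 4 replicate mice for each region and age, and a mouse could give several regions. Which replicate numbers belong to 1 mouse is not in the labels, so a spinal cord and a cerebellum sample may share an animal, and the sex of the mice was not given in the sources used here. Cerebellum filled plate columns 1 to 12 and spinal cord columns 13 to 24, so region and side of the plate cannot be told apart.

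Microglia, the macrophages of brain and spinal cord tissue, settle there in embryonic life, renew locally and survive on signals through the receptor Csf1r. In the healthy adult they express a homeostatic programme that includes the purine receptor gene P2ry12, the chemokine receptor gene Cx3cr1 and the membrane protein gene Tmem119. This programme is maintained by TGF-beta and by transcription factors such as Sall1. The spinal cord is rich in white matter, whereas the cerebellum holds a large layered grey matter, and the question here was whether adult microglia of these 2 tissues differ.

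The cerebellum samples were on the whole the deeper ones. Region samples held 6343182 to 8077594 counts in spinal cord and 7834240 to 11736151 in cerebellum. The median cell had 2327 ± 95.2 detected genes in spinal cord and 2321 ± 77.4 in cerebellum (mean ± SD of the region sample medians, n = 4 each; exact permutation p = 0.914, two-sided over 70 splits). Its mitochondrial share was 2.14% ± 0.28 and 1.75% ± 0.244 (exact permutation p = 0.0857), and its number of counts 177342 ± 36114 and 206762 ± 35209 (exact permutation p = 0.314). The share of sorted wells kept was 69.6% to 97.9% in spinal cord, lowest in replicate 4, and 93.8% to 97.9% in cerebellum (exact permutation p = 0.171). None of 5 such measures, the spike-in share included, passed after adjustment (lowest adjusted p = 0.429). The exact permutation test cannot go below p = 0.0286 with 70 splits, so 1 fully separated measure alone could not have passed over 5 tests. The lack of a pass therefore does not show that the regions were alike in these measures. Where bulk sums are compared, fewer expressing cells and less RNA per cell cannot be told apart; shares of cells are given further on.

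The cells carried the markers of microglia. P2ry12 was at 9001, 9868, 7798 and 8541 CPM (counts scaled to the size of the library) in spinal cord replicates 1 to 4 and at 8459, 9549, 9161 and 9212 in cerebellum. The receptor gene Csf1r was at 12333 to 13411 in spinal cord and 12692 to 13938 in cerebellum. The 2 regions overlapped for both genes, with log2 differences (spinal cord minus cerebellum, ± SE) of -0.05 ± 0.08 and -0.06 ± 0.06. P2ry12, Csf1r, Cx3cr1 and Tmem119 had reads in at least 94.4% of the cells of every region sample at a fixed depth of 57459 reads per cell.

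The summed levels of other cells' markers overlapped between the regions. Of 12 border macrophage genes, which mark macrophages of the meninges and vessels, the summed level was 53 to 141 CPM in spinal cord and 73.1 to 166 in cerebellum, and Cbr2 and Ms4a7 had 0 reads. Monocyte genes summed to 16.5 to 47.3 and 2.88 to 32.1 (Ly6c2 had 0 reads), and genes of T and NK cells to at most 5.32 and 15.1. Neutrophil genes summed to 615 to 1088 and 379 to 1133, nearly all from the growth factor receptor gene Csf3r, while S100a8 had 0 reads. Among B cell genes, which summed to 582 to 851 and 540 to 968, Ighm made up most, and Igkc had 0 reads. Neuron genes summed to 1.21 to 8.92 and 3.25 to 60.3, cerebellar neuron genes to 0.49 to 5.16 and 2.28 to 9.47, astrocyte genes to 148 to 301 and 135 to 293 with 0 reads of Gfap, and endothelial genes to 0.858 to 123 and 2.76 to 21.8 with 0 reads of Cldn5. Oligodendrocyte genes summed to 66.9 to 391 in spinal cord and 115 to 161 in cerebellum, and spinal motor neuron genes to at most 10.6 and 0.768. Hox genes, which mark position along the body axis, were not measurable: 21 of 39 had 0 reads and 0 passed the filter on low counts.

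At the level of single genes no difference between the regions passed the test. Of 10989 genes, edgeR called 0 (0% of those tested, Benjamini-Hochberg adjusted p under 0.05), and every adjusted p was 1 after rounding. An unadjusted p under 0.05 was reached by 329 genes (2.99% of those tested), 177 higher (1.61%) and 152 lower (1.38%) in spinal cord. The 4 spinal cord samples lay above all 4 cerebellum samples for 171 genes (1.56%) and below them for 166 (1.51%), which together are 3.07% of those tested. limma voom called 0 genes as well (555 at an unadjusted p under 0.05), while DESeq2 called 10, with 1 higher and 9 lower in spinal cord (547 at an unadjusted p under 0.05). Without the filter on low counts edgeR called 7 of 29547. In that fit 3660 genes had an unadjusted p under 0.05, 2668 higher and 992 lower. Its median log2 difference was 0.22, against 0.01 with the filter.

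The precision of these samples depended strongly on the level of a gene. The median standard error of the log2 difference was 0.77 over all genes, 0.3 over the 1774 genes with a mean of at least 100 CPM and 0.13 over the 93 genes with at least 1000 CPM. The median size of the log2 difference was 0.43, 0.21 and 0.13 in the same groups. Fitted differences above 2-fold made up 19.8% of all genes, 1.18% of those at 100 CPM or more, and 1 gene at 1000 CPM or more, which was Gm10800. Among genes of at least 100 CPM, 35 lay higher without overlap (1.97%) and 18 lower (1.01%). Pairs of samples from different regions were about as far apart as pairs from 1 region. The median size of the log2 difference, over genes of at least 100 CPM, averaged 0.411 over the 16 pairs between regions (0.378 to 0.474), 0.382 over the 6 pairs within cerebellum (0.366 to 0.402) and 0.432 over the 6 pairs within spinal cord (0.407 to 0.464).

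**Figure D1:**
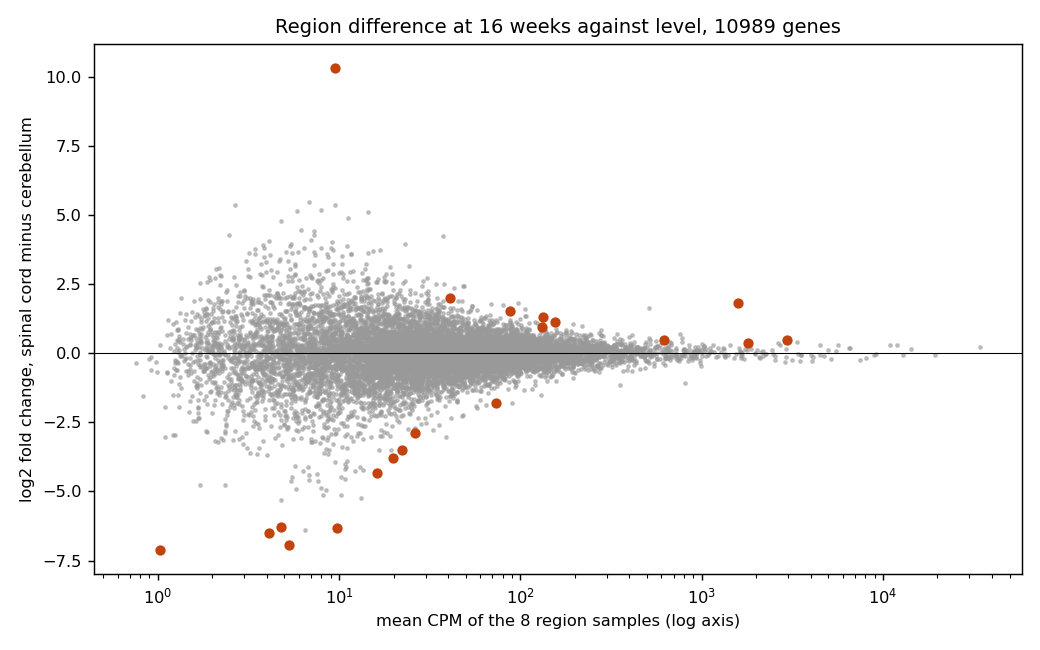
Log2 fold change between spinal cord and cerebellum at 16 weeks (y axis) against the mean CPM of the 8 region samples (x axis, log axis) for the 10989 genes tested. Each point is a gene, and the 20 genes with the smallest p in either direction are drawn larger in orange. The cloud narrows with level, from a median size of 0.43 over all genes to 0.13 at 1000 CPM or more, and 0 genes passed the test.

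Homeostatic genes differed in both directions between the regions, and none passed the test. Of 20 genes of this list all were tested, 7 were higher and 13 lower in spinal cord, and 0 passed. The median log2 difference was -0.05 against 0.01 over all genes. An unadjusted p under 0.05 was reached by 3 of the higher and 3 of the lower genes, against 2.99% of all genes in either direction. That share rose with level, to 105 of 1774 genes at 100 CPM or more and 16 of 93 at 1000 CPM or more. Many genes of this list are at such levels, so 2.99% is a low yardstick for them. Cx3cr1, the receptor of the neuronal chemokine fractalkine, was at 7203, 6724, 6223 and 7168 CPM in spinal cord and 7664, 8820, 7594 and 8499 in cerebellum. It was the 1 gene of the list whose groups did not overlap, lower in spinal cord by a log2 difference of -0.25 ± 0.08 (edgeR p = 0.00938 before adjustment, adjusted p = 1). The side of the plate that spinal cord filled here had the higher mean of Cx3cr1 on only 1 of the 6 other plates. That side minus the other gave a median log2 difference of -0.11 over those plates, and the part of plate position was not tested. Tmem119 was at 5681, 6393, 5924 and 6790 in spinal cord and 4422, 5254, 5815 and 4780 in cerebellum. Here the highest cerebellum sample lay above the lowest of spinal cord, and the log2 difference was 0.29 ± 0.1 (edgeR p = 0.015, adjusted p = 1).

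Fcrls, an Fc receptor-like gene of microglia, had the widest difference of this list. It was at 788, 345, 478 and 471 CPM in spinal cord and 1429, 676, 1097 and 1230 in cerebellum. Replicate 1 of spinal cord lay above replicate 2 of cerebellum, so the groups overlapped, although the other samples stood apart. The spinal cord mean of 521 ± 189 was 2.13-fold below the 1108 ± 319 of cerebellum (log2 -1.09 ± 0.28; edgeR p = 0.00277, adjusted p = 1). Without the filter on low counts the gene passed with edgeR adjusted p = 0.00194. That fit had 3660 of 29547 genes at an unadjusted p under 0.05, against 329 of 10989 with the filter. Reads of Fcrls were found in 77 of 165 spinal cord cells and 127 of 183 cerebellum cells at their own depths. The side of the plate that spinal cord filled here had the higher mean of Fcrls on only 1 of the 6 other plates. That side minus the other gave a median log2 difference of -0.27 over those plates, the same direction as here. The part of plate position in the Fcrls difference was not tested. On GRCm38 Fcrls lies on the minus strand of chromosome 3 from 87250758 to 87263738.

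Cst3, the protease inhibitor cystatin C, and Ctss, the lysosomal protease cathepsin S that it inhibits, were both somewhat higher in spinal cord. Cst3 was at 47301, 33737, 32851 and 35377 in spinal cord and 31204, 30176, 32070 and 32901 in cerebellum, where replicate 3 of spinal cord lay just under the highest cerebellum sample. Ctss was at 14332, 13313, 11567 and 13550 against 9926, 10991, 10671 and 11922, again with 1 overlapping sample. Log2 differences were 0.24 ± 0.1 and 0.28 ± 0.08, with edgeR p of 0.0427 and 0.00666 before adjustment. P2ry13, another purine receptor gene, was lower (log2 -0.29 ± 0.11), and Selplg, the P-selectin ligand gene, was at 6637 to 7433 in spinal cord and 5280 to 6769 in cerebellum. Fcrls, Ctss, P2ry13 and the other list members given below that are not among the 3 highest of their list were chosen after their values were seen.

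**Figure D2:**
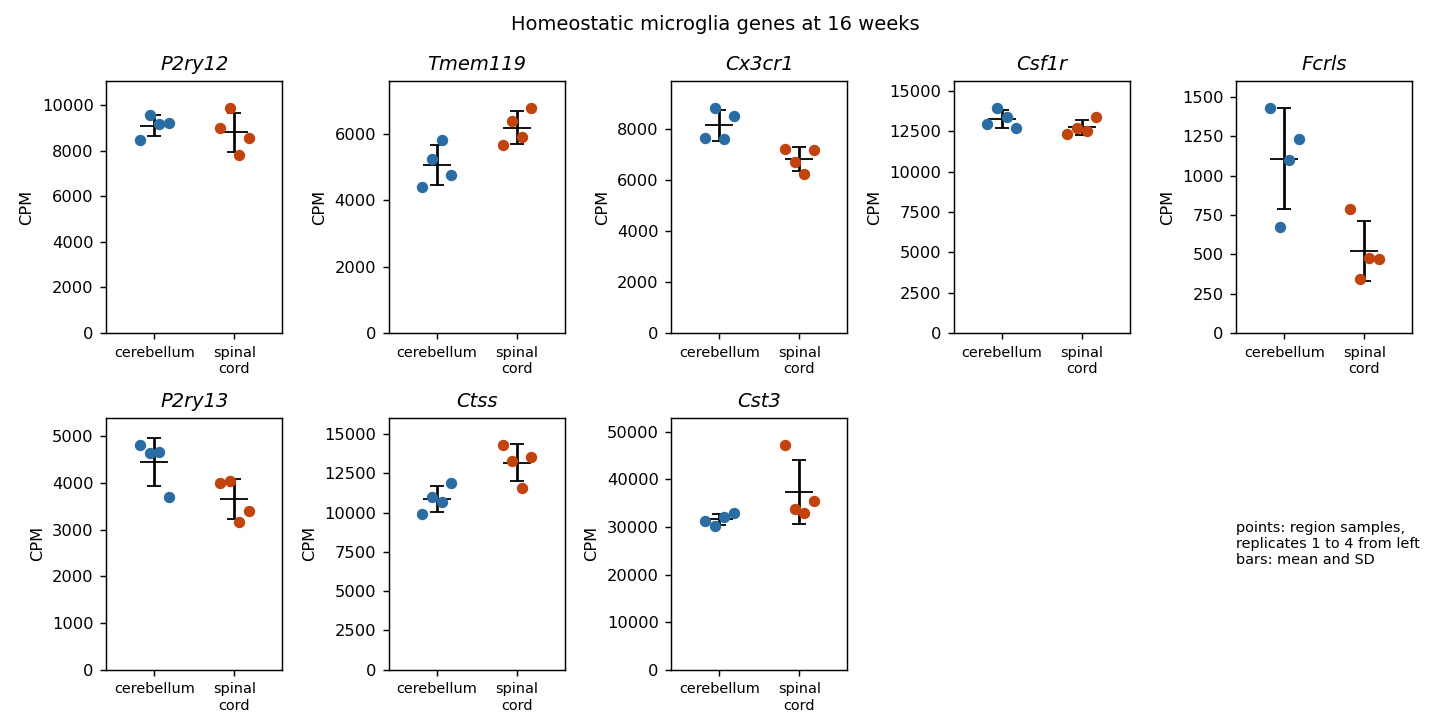
CPM (y axes, from 0) of 8 homeostatic microglia genes in the 4 cerebellum samples (blue) and the 4 spinal cord samples (orange) at 16 weeks. Points are region samples, and bars the mean and SD. P2ry12 and Csf1r overlap closely, Cx3cr1 lies lower in all 4 spinal cord samples, and Fcrls has means of 521 in spinal cord and 1108 in cerebellum with 1 sample of each group overlapping.

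The 10 genes with the smallest p among those higher in spinal cord did not pass the test, and the groups of 4 did not overlap in any of them, which follows in part from the choice by p. Cyb561a3, a cytochrome b561 family gene, was at 199, 253, 219 and 185 CPM in spinal cord and 123, 63.6, 110 and 98.6 in cerebellum, a 2.16-fold difference (log2 1.11 ± 0.27; edgeR p = 0.00162). Serpinf1, which encodes pigment epithelium-derived factor, was at 194, 165, 186 and 143 against 94, 88.4, 82.8 and 97.2 (log2 0.93 ± 0.24; edgeR p = 0.00257). Both genes had tight groups, with the lowest spinal cord sample at 185 and 143 and the highest cerebellum sample at 123 and 97.2.

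Capn3, a calpain protease gene, and Man2b1, the lysosomal alpha-mannosidase gene, were expressed in most cells and differed little. Capn3 was at 692 to 760 CPM in spinal cord and 441 to 551 in cerebellum (log2 0.49 ± 0.13), and Man2b1 at 1834 to 2239 and 1487 to 1789 (log2 0.38 ± 0.11). Arhgap15, a Rac GTPase-activating protein gene, was at 57.6, 54.9, 35.4 and 116 in spinal cord and 23, 13.7, 16 and 12.5 in cerebellum (log2 2.01 ± 0.53; edgeR p = 0.00326), and 35 of 165 spinal cord cells had reads against 8 of 183 cerebellum cells. Cnot10, of the CCR4-NOT deadenylase complex, was at 79.7 to 220 and 23.7 to 54.8. Gas2l3, a cytoskeletal linker gene, was at 14.9, 6.73, 22.8 and 31.3 in spinal cord and had 0 reads in all 4 cerebellum samples. With cerebellum set at a floor of 3 reads per library it was at least 59.7-fold higher in spinal cord, and its 534 reads came from 6 of 165 cells, 35.6% of them from 1 cell.

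**Figure D3:**
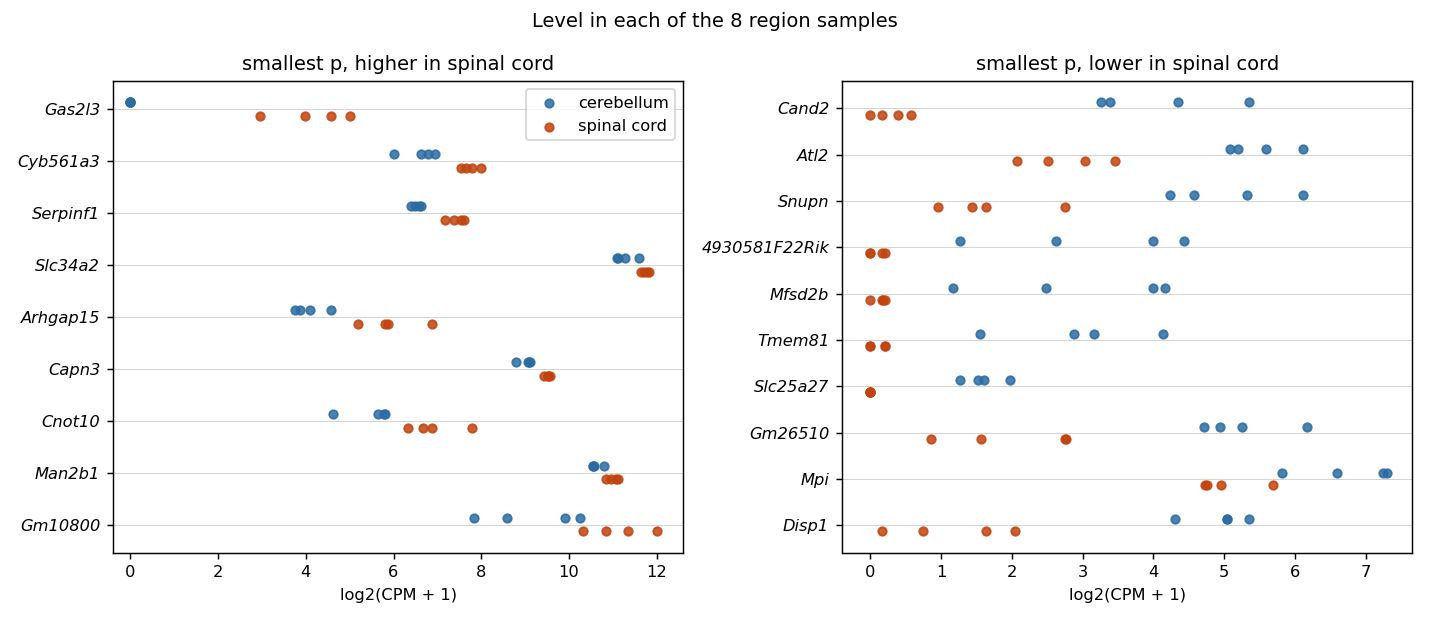
Level as log2(CPM + 1) (x axis) of genes with the smallest p, 9 higher (left) and 10 lower (right) in spinal cord, by gene (y axis). Each point is 1 of the 4 cerebellum (blue) or 4 spinal cord (orange) samples. The genes on the left lie mostly at 50 CPM or more, such as Cyb561a3 at 185 to 253 in spinal cord and 63.6 to 123 in cerebellum, and those on the right mostly near the detection limit in spinal cord.

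The genes lower in spinal cord rested on few cells. Cand2, which encodes a regulator of cullin ubiquitin ligases, was at 0, 0.313, 0.123 and 0.484 CPM in spinal cord and 8.54, 9.42, 19.4 and 39.8 in cerebellum (log2 -6.33 ± 1.43; edgeR p = 0.00112), from 6 reads in 5 cells against 681 reads in 14 cells. Atl2, an atlastin gene of the endoplasmic reticulum, was at 4.69, 7.2, 3.19 and 10 against 35.7, 68.1, 32.9 and 47.1 (log2 -2.87 ± 0.66), from 9 and 15 cells. Snupn, the snurportin gene, was at 0.939 to 5.76 and 17.8 to 68.5, Disp1, which acts in the release of hedgehog proteins, at 0.123 to 3.13 and 18.8 to 40, and the noncoding Gm26510 at 0.807 to 5.79 and 25.2 to 71. The spinal cord cells with reads numbered 9, 9 and 19, and the cerebellum cells 16, 16 and 46. 4930581F22Rik, Mfsd2b and Tmem81 had 2, 3 and 2 reads in all spinal cord samples together and 442, 344 and 328 in cerebellum. The cerebellum to spinal cord ratios were 161 (95% counting interval 44.3 to 1332), 83.4 (28.3 to 407) and 119 (32.8 to 990), which cover counting error only. Slc25a27, a mitochondrial carrier gene, had 0 reads in spinal cord and 1.42 to 2.92 CPM in cerebellum, which was at least 4.8-fold higher than spinal cord set at the floor of 3 reads per library.

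Mpi was the most widely detected of the lower genes. It encodes mannose phosphate isomerase, which links glycolysis to protein glycosylation. It was at 25.5, 26, 30 and 50.5 CPM in spinal cord and 55.3, 151, 156 and 95.4 in cerebellum, without overlap though replicate 4 of spinal cord and replicate 1 of cerebellum were close (log2 -1.79 ± 0.44; edgeR p = 0.00201, adjusted p = 1). Mpi lies on the minus strand of chromosome 9, from 57544256 to 57552763 of GRCm38. DESeq2 called 7 of these 20 genes, which were Gas2l3, higher, and Cand2, Atl2, Snupn, 4930581F22Rik, Gm26510 and Disp1, lower. Each of the 7 had reads in at most 19 cells of the region where it was lower, and edgeR called 0 of the 20.

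Shares of cells gave a like picture. With every cell thinned to 57459 reads, which left 139 spinal cord and 174 cerebellum cells and dropped 26 and 9 shallower ones, the share with reads was compared for 25 genes over the 8 region samples. Arhgap15 was detected in 19.7% ± 8.48 of spinal cord cells and 3.45% ± 1.34 of cerebellum cells (SD, n = 4 each), Cyb561a3 in 57.8% ± 5.29 and 43.6% ± 4.58, Mpi in 12% ± 2.85 and 24% ± 9.3, and Gm26510 in 8.27% ± 3.12 and 19.6% ± 4.6. In cells not thinned the means were 21.9% and 4.39%, 53.8% and 43.6%, 15.6% and 26.2%, and 11.1% and 25.2%. These 4 genes and Cand2, Tmem81 and Slc25a27 reached 0.0286 in the exact permutation test, its limit with 70 splits, and an adjusted p of 0.102 over 25 tests, so 0 passed. Because the genes had been picked by the difference in their summed counts, these shares describe that difference and are no separate test of it. Serpinf1 was detected in 29.7% ± 5 and 25.8% ± 4.16 of cells (exact permutation p = 0.257).

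Levels in the 14 groups of the series, scaled together over all 51 samples, show which of the 2 regions stood away from the others for these genes. Arhgap15 had its highest mean in spinal cord at 16 weeks (61.3 ± 31.3 CPM, SD, n = 4), against 15.6 ± 4.91 in cerebellum at 16 weeks and 0.339 to 11.3 in the other groups. Mpi had its lowest mean there (30.7 ± 10.6), against 108 ± 44.1 in cerebellum at 16 weeks and 146 to 365 in the other groups. Cand2 likewise had its lowest mean in spinal cord at 16 weeks (0.212 ± 0.195), with 11.7 to 42 elsewhere. For Cyb561a3 it was cerebellum at 16 weeks that had the lowest mean, at 94.3 ± 25.7 against 148 to 200 in the other 13 groups. Groups of other plates also differ in plate, and the genes had been chosen for the difference at 16 weeks, so these levels are a description without a test.

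Within cerebellum and spinal cord Fcrls was highest in embryos and lowest at 16 weeks, and spinal cord at 16 weeks had the lowest mean of the 14 groups. On the same scale its means were 6962 ± 720 in embryonic cerebellum and 5302 ± 353 in embryonic spinal cord (SD, n = 4 each), 2843 ± 1020 and 2463 ± 501 at 3 weeks (n = 3 each), and 1057 ± 319 and 488 ± 184 at 16 weeks. Cerebellum was above spinal cord at each age, with overlapping samples at 3 weeks and at 16 weeks. The ages lie on different plates, so age and plate cannot be told apart. At 3 weeks the 2 regions also lie on separate plates. Cortex and hippocampus at 16 weeks were at 3647 ± 1221 and 2987 ± 1026, and corpus callosum at 1689 ± 836.

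Gm10800 and Slc34a2, which were also among the 10 higher genes, were also higher in columns 13 to 24 on the other plates. Gm10800 is a gene model on the minus strand of chromosome 2 of GRCm38, from 98666547 to 98667301, whose sequence is repeated in several other gene models. The stretches below, from its transcript in GENCODE M21, are the longest that it shares letter for letter with 4 such models on either strand, and the capitals mark a run of 13 bases that all 4 stretches hold and that occurs 5 times in the transcript.
Gm10801: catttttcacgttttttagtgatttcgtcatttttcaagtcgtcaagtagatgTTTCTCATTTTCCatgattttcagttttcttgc
Gm10717: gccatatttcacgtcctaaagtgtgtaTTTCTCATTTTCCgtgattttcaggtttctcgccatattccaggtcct
Gm21738: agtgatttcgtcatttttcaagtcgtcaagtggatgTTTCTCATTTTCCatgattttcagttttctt
Gm10722: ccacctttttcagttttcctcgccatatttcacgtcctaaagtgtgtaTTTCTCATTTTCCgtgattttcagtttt
These stretches are 86, 75, 67 and 76 bases long. Of the 630 overlapping 31-base words of the 660-base Gm10800 transcript, 29%, 30.3%, 17% and 23.3% occur in Gm10801, Gm10717, Gm21738 and Gm10722, so reads of these models may be split between them and each value is uncertain.

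Gm10800 was at 1279, 4130, 1853 and 2589 CPM in spinal cord and 386, 1222, 226 and 955 in cerebellum. The lowest spinal cord sample lay just above the highest cerebellum sample, and the log2 difference was 1.82 ± 0.52 (edgeR p = 0.00509, adjusted p = 1). Gm10801, Gm10717, Gm21738 and Gm10722 were higher by log2 1.65 to 1.96, with the groups overlapping for Gm10801 and Gm10717. On all 7 plates the group in columns 13 to 24 had a higher mean of Gm10800 than the group in columns 1 to 12, whichever regions and ages they were. The log2 differences between the sides were 0.43 to 2.51 on the 6 other plates and 1.79 on the plate of these samples. Cerebellum at 3 weeks filled columns 13 to 24 of its plate and had a mean of 3985 CPM, and spinal cord at 3 weeks filled columns 1 to 12 of another plate and had 419, the opposite order to that at 16 weeks.

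Slc34a2, a sodium phosphate cotransporter gene on chromosome 5 from 53038081 to 53071664, was at 3219, 3355, 3540 and 3656 CPM in spinal cord and 2238, 2179, 2500 and 3085 in cerebellum. The groups did not overlap (log2 0.46 ± 0.12; edgeR p = 0.00275, adjusted p = 1), and columns 13 to 24 were higher on all 7 plates, by log2 0.04 to 1.02. The same gene dominated the blank wells, which had received no cell. The 4 blank wells of the plate held 1922 to 3173 reads of Slc34a2 each, or 88.9% of their 11679 gene reads. In kept cells the median was 540 reads in spinal cord and 448 in cerebellum, and the share of all gene reads 0.338% and 0.246%. Over the 28 blank wells of the series Slc34a2 took 46.3% of the gene reads, with 0 reads in the 4 blank wells of 1 other plate. Those 4 wells held only 151 gene reads together and a median of 0 spike-in reads, so their 0 says little. Gm10800 had 0 reads in the blank wells of the plate of these samples. What part plate position or the reads seen in blank wells have in these 2 differences was not tested.

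**Figure D4:**
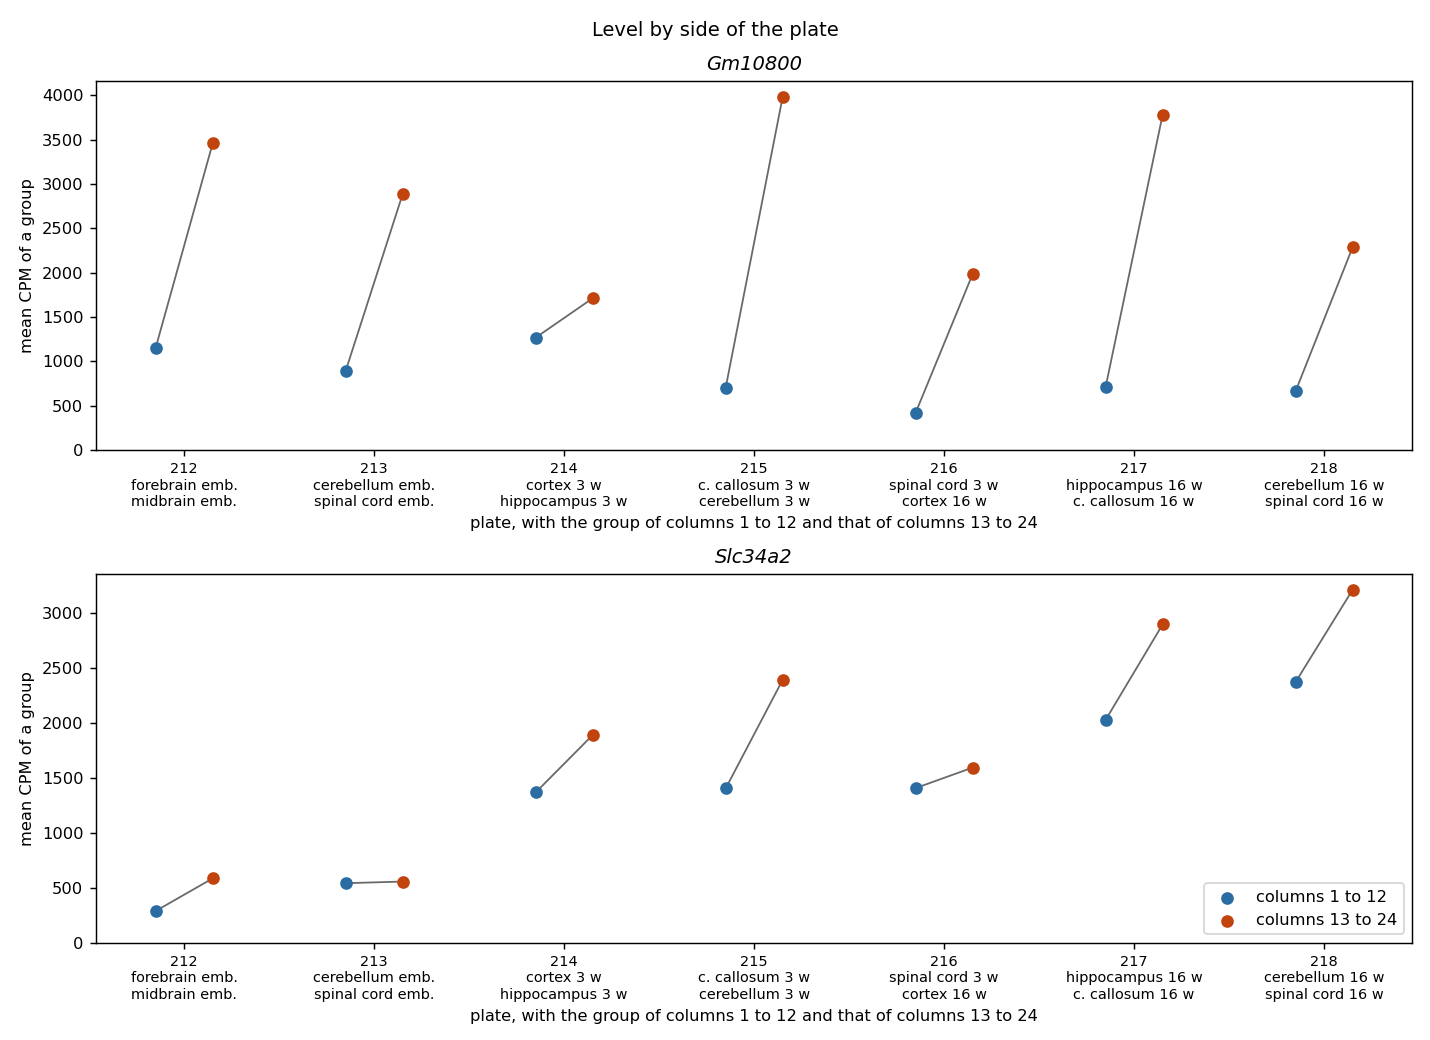
Mean CPM of a group (y axes, scaled over all 51 samples) for Gm10800 (top) and Slc34a2 (bottom) on each of the 7 plates (x axis), with the group in columns 1 to 12 in blue and the group in columns 13 to 24 in orange. The orange point is the higher 1 on all 7 plates for both genes, with 662 and 2287 for Gm10800 and 2375 and 3216 for Slc34a2 on the plate of these samples.

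Over larger groups of genes the sides of the other plates gave shares near those of all genes. Of the 171 genes higher in spinal cord without overlap, Gm10800 and Slc34a2 included, 9.94% were higher in columns 13 to 24 on at least 5 of the 6 other plates, against 10.1% of all genes tested. Of the 10 genes with the smallest p among the higher ones it was 3, namely Gm10800, Slc34a2 and Cnot10, the last on 5 of 6 plates with a median log2 difference of 0.14. Of the 166 lower genes, 12.7% were higher in columns 1 to 12 on at least 5 of them, against 11.8% of all. These other plates hold other regions or ages. The plate of the embryonic groups holds cerebellum and spinal cord on the same sides as here, so on it region and side cannot be told apart.

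Gene lists are given by their counts and medians, to be read against the 1.61% of genes higher and 1.38% lower at an unadjusted p under 0.05, the 1.56% higher and 1.51% lower without overlap, and the median of 0.01 over all genes. These shares depend on level: an unadjusted p under 0.05 was reached by 105 of 1774 genes at 100 CPM or more and 16 of 93 at 1000 CPM or more. Lists of abundant genes are therefore to be read against these counts. In each list named here 0 members passed after adjustment. Genes of MHC class II, which display peptides to helper T cells, had the widest median among the lists with at least 6 tested members. Of 9 members 6 were tested, 5 were higher and 1 lower in spinal cord, 0 had an unadjusted p under 0.05, and the median log2 difference was 0.94. Their summed level was 580 to 863 CPM in spinal cord and 360 to 464 in cerebellum. The samples owed this sum to different members. H2-DMa, a chaperone subunit of peptide loading, was at 461, 75.6, 126 and 86.6 in spinal cord and 167, 48.5, 24.2 and 85.6 in cerebellum. H2-Ob, a regulator of that step, was at 132, 334, 320 and 404 against 87.2, 183, 256 and 220. The classical chain gene H2-Ab1 was at 1.21, 44.1 and 22.3 in spinal cord replicates 1 to 3 and higher in replicate 4 (mean of all 4 samples 71 ± 98.4), against 0, 8.13, 60.9 and 24.8, and H2-Aa had 0 reads in all 8 samples. The invariant chain gene Cd74 was at 12.5 to 97.1 and 3.7 to 24.1, and H2-DMb1 at 88.1 to 128 and 78.6 to 136, so the groups overlapped in every member named.

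MHC class I genes had a median of 0.12, with 11 of 15 higher. B2m, the invariant light chain, was at 1772 to 2179 CPM in spinal cord and 1463 to 2126 in cerebellum, and the heavy chain genes H2-D1 and H2-K1 overlapped too. Psmb9, a subunit of the immunoproteasome, was at 57.9, 47.4, 71.6 and 56 against 45.6, 26.2, 17.5 and 18.3, without overlap (log2 1.11 ± 0.49; edgeR p = 0.0439). H2-Q7, a class Ib gene, was the other member without overlap and the lower 1 in spinal cord, at 0.402 to 1.72 against 1.76 to 4.48 (log2 -1.7 ± 1.06). Type I interferon response genes had a median of 0.11, with Rnf213 at 61 to 116 and 16.4 to 67.5 and Trim30a at 73.5 to 126 and 63.3 to 270.

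Actin genes leaned one way. Of 20 members 16 were higher in spinal cord, 3 of them without overlap, and the median was 0.22. An unadjusted p under 0.05 was reached by 5 higher and 0 lower ones. Members such as Actb and Tmsb4x were at high levels, where such a p was more frequent among all genes (above). Actb, cytoplasmic beta actin, was at 7067, 6568, 6538 and 7303 CPM in spinal cord and 5970, 5623, 6118 and 6521 in cerebellum, which did not overlap by a narrow gap (log2 0.18 ± 0.08; edgeR p = 0.0355). Cotl1, an actin-binding coactosin-like gene, was at 243, 233, 243 and 349 against 192, 204, 138 and 219. Capg, which caps actin filaments, was at 67.6 to 117 and 20.2 to 70.9, and Tmsb4x, which binds actin monomers, at 1936 to 2525 and 1912 to 2289. The summed level was 13836 to 15725 and 12538 to 13821.

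Complement genes lay slightly lower, with 6 of 8 lower, 2 of them at an unadjusted p under 0.05, and a median of -0.12. C1q is the starter of the classical complement pathway and tags synapses for uptake by microglia. C1qa was at 4169, 3932, 3839 and 3687 CPM in spinal cord and 4392, 4349, 4299 and 4347 in cerebellum, and C1qc at 2419, 2574, 2065 and 2232 against 2819, 2892, 2636 and 2783. Both were lower in all 4 spinal cord samples, by log2 -0.15 ± 0.07 and -0.26 ± 0.09 (edgeR p = 0.0614 and 0.0195). The third chain gene, C1qb, was at 3363 to 4440 and 3787 to 4741 and overlapped. C5ar1, the receptor of the fragment C5a, was at 58.5 to 178 and 99.1 to 328.

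Lysosome genes were even, with 10 of 22 higher and 12 lower and a median of -0.06. Psap, the precursor of the saposins that aid lipid breakdown, was at 3318, 3577, 3332 and 4968 CPM in spinal cord and 2619, 2808, 3038 and 3054 in cerebellum, without overlap (log2 0.4 ± 0.14; edgeR p = 0.0137). Laptm5 was at 4061 to 4897 and 4081 to 5188, and the cathepsin gene Ctsz at 1805 to 3075 and 2934 to 3882. Phagocytic and disease-associated genes had 7 of 15 higher and a median of -0.05, with Ctsd at 6133 to 8735 and 8240 to 9117, Ctsb at 2414 to 4325 and 3134 to 4538 and Cd9 at 945 to 1330 and 773 to 1395. The lipid carrier gene Apoe varied more within regions than between them, at 57.2, 391, 1535 and 141 in spinal cord and 791, 492, 145 and 668 in cerebellum. The chemokine gene Ccl6 was at 428, 179, 254 and 195 against 104, 137, 70.2 and 197 (log2 1.06 ± 0.37; edgeR p = 0.0171).

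Cytokine, purine and lipid genes held single members with wider differences. Tnfsf13b, the B cell survival factor BAFF, was at 234, 102, 159 and 172 CPM in spinal cord and 92.1, 96.7, 56.5 and 71.4 in cerebellum, without overlap (log2 1.08 ± 0.32; edgeR p = 0.00722). Tnfsf13b was also higher in columns 13 to 24 on 5 of the 6 other plates, with a median log2 difference of 1.02, and the part of plate position was not tested. Tgfb1, the gene of the cytokine TGF-beta 1, was the other member without overlap, at 27.4 to 36.1 in spinal cord and 39.6 to 43.4 in cerebellum (log2 -0.38 ± 0.44). Among the other chemokine and cytokine genes Il1a and Ccl9 overlapped, and Ccl3 was at 311, 0, 15.3 and 0 in spinal cord, where 86.6% of its reads came from 1 cell. Entpd1, which encodes the enzyme CD39 that degrades extracellular ATP, was at 711 to 1041 and 1006 to 1294 (log2 -0.45 ± 0.16), and the nicotinic acid receptor gene Hcar2 at 179 to 371 and 95.2 to 229 (log2 0.98 ± 0.32). The cholesterol exporter genes Abca1 and Abcg1 were at 80.8 to 165 and 57.3 to 125 in spinal cord and 154 to 360 and 99.2 to 233 in cerebellum, with log2 differences of -0.9 ± 0.32 and -0.99 ± 0.37 (edgeR p = 0.0168 and 0.0222). Their list joins genes of cholesterol synthesis with genes of efflux and had 12 of 17 higher and 5 lower. An unadjusted p under 0.05 was reached by 1 higher member and by 2 lower ones, Abca1 and Abcg1. The list median of 0.47 pools both kinds of genes and was opposite in sign to these 2 efflux genes.

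Transcription factor genes of microglia had 12 of 20 higher, a median of 0.13 and a summed level of 5577 to 6058 CPM in spinal cord and 5230 to 5383 in cerebellum. Bhlhe41 was at 287 to 341 and 167 to 293 (log2 0.47 ± 0.2), and Mef2c at 629 to 1022 and 756 to 880. TGF-beta signalling genes had a median of -0.03, with the receptor genes Tgfbr1 at 1270 to 1497 and 1372 to 1478 and Tgfbr2 at 652 to 837 and 635 to 1040. Among adhesion genes Cd81, a tetraspanin gene, was at 3907 to 5682 and 3921 to 4188 (log2 0.3 ± 0.11).

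Genes of energy supply and translation did not separate the regions. Cytosolic ribosomal protein genes had 43 of 77 higher and a median of 0.05, nuclear oxidative phosphorylation genes 39 of 77 higher and a median of 0, and glycolysis genes 12 of 17 higher and a median of 0.13. All 7 tested mitochondrially encoded genes were higher, with a median of 0.25 and 0 at an unadjusted p under 0.05, among them mt-Co1 at 2420 to 3781 CPM in spinal cord and 1778 to 2626 in cerebellum and mt-Cytb at 2536 to 3394 and 2039 to 3026. The mitochondrial share of cells (above) counts all mitochondrially encoded genes, these list members among them, so its like direction is no fully separate measure. The 13 list members summed to 8427 to 11962 CPM in spinal cord and 6960 to 9918 in cerebellum, which is only a part of that share. The genes mt-Co2, mt-Co3, mt-Atp6, mt-Atp8 and mt-Nd3 had 0 reads in these 8 samples, so this sum rests on the other members. Nuclear noncoding RNA and splicing genes had 10 of 13 lower and a median of -0.06, with Malat1 at 4497 to 5247 and 4928 to 6066. Of 20 S phase genes 13 and of 20 G2/M genes 2 were tested, and 0 passed.

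**Figure D5:**
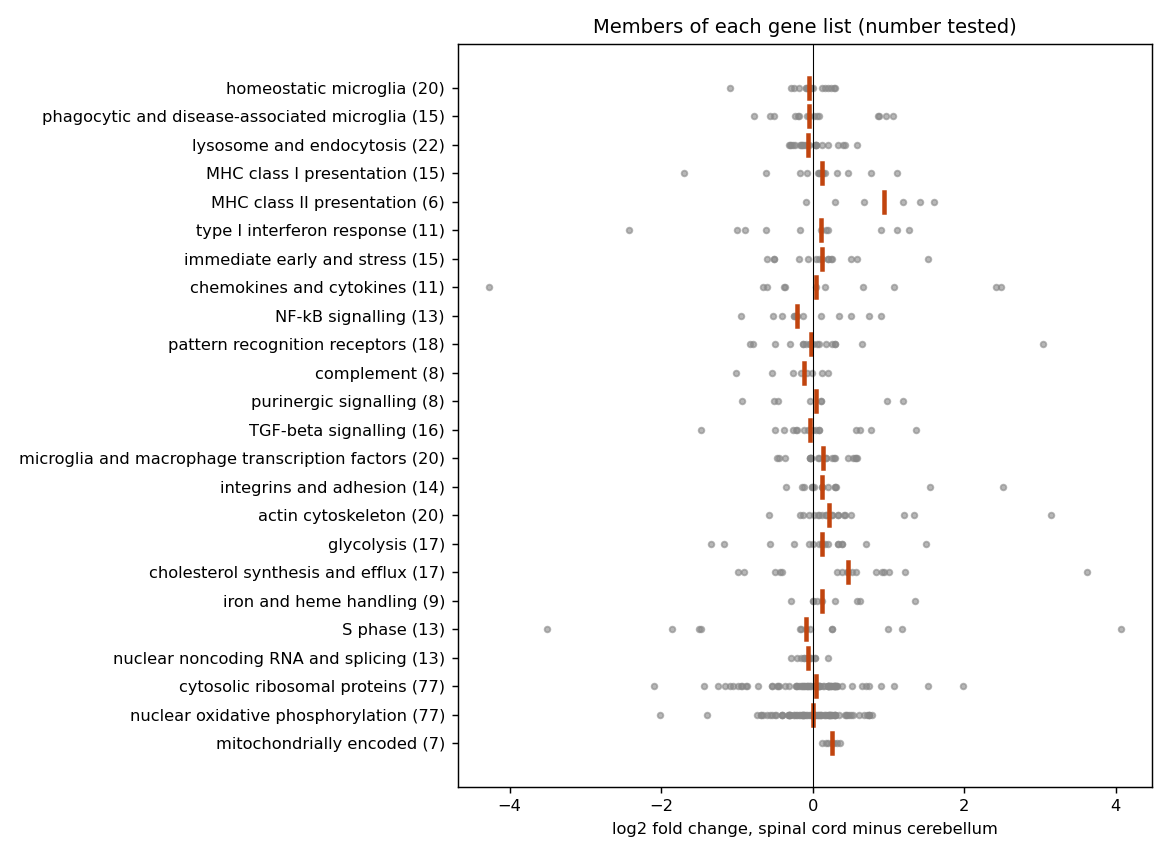
Log2 fold change between spinal cord and cerebellum at 16 weeks (x axis) of the tested members of each gene list with at least 6 of them (y axis, number tested in brackets). Grey points are genes and orange bars the list's median. Medians lie between -0.2 and 0.25 except for cholesterol synthesis and efflux at 0.47 and MHC class II presentation at 0.94, and 0 genes passed the test.

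Whether the region difference was another at 16 weeks than at earlier ages was tested as an interaction. The embryonic groups, on 1 plate, had 4 samples each and 352 cells, with each region on the same side of the plate as at 16 weeks. The groups of 3 weeks had 3 samples each and 342 cells and lay on separate plates. Against embryos 0 of 14093 genes passed (edgeR, 0% of those tested), and 956 had an unadjusted p under 0.05 (6.78%), 478 of them (3.39%) in each direction. The smallest p belonged to Gas2l3 and Cand2 (adjusted p = 0.0963 for both), then to Fam118a, Ctsc and Cdca7l. Gas2l3 was at 26.4 ± 26.3 CPM in embryonic spinal cord and 30.3 ± 24.5 in embryonic cerebellum (SD, n = 4 each, scaled over all samples), and Cand2 at 33.7 ± 8.61 and 33.2 ± 10.7, so neither differed by more than its spread in embryos. Ctsc, the cathepsin C gene, was at 1301 to 1605 in spinal cord and 1389 to 1890 in cerebellum at 16 weeks. Fam118a and Cdca7l were found in 5 and 6 spinal cord cells at 16 weeks and had 0 reads in cerebellum. DESeq2 called 113 genes in this comparison.

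Against 3 weeks 1 of 14857 genes passed, Gm10800 (0.00673% of those tested), and 911 had an unadjusted p under 0.05 (6.13%), of which 566 (3.81%) had a spinal cord minus cerebellum difference more positive at 16 weeks and 345 (2.32%) one more negative. The spinal cord minus cerebellum difference of Gm10800 was more positive at 16 weeks by log2 5.12 ± 0.72 (edgeR adjusted p = 0.0415), and against embryos the same quantity was 0.09 ± 0.95. The sides of the plate were reversed between 3 and 16 weeks and the same in embryos, so age and side of the plate cannot be told apart in this result. The call was lost in the counts as deposited (adjusted p = 0.825), without plate columns 1 and 2 (adjusted p = 0.104) and in 9 of 14 fits that leave out 1 sample. These left out replicate 2 or 3 of cerebellum and any replicate of spinal cord at 3 weeks, or replicate 1 of cerebellum and replicate 2, 3 or 4 of spinal cord at 16 weeks, with adjusted p from 0.057 to 0.173. The log2 difference was 3.85 in the counts as deposited, 5.09 without columns 1 and 2 and 4.76 to 5.55 over the 14 fits. The call was kept with DESeq2 (adjusted p = 2.04e-07), with RLE scaling (edgeR adjusted p = 0.0384), with a replicate block (0.0103), with at least 1000 genes per cell (0.0379) and without the filter on low counts. Next by p were Slc34a2 (log2 1.28 ± 0.2, adjusted p = 0.0645), the repeat models Gm10717 and Gm21738, which share sequence with Gm10800, and Tacc3, a mitotic spindle gene that was at 8.84 to 29.6 CPM in spinal cord and 0.793 to 24.3 in cerebellum at 16 weeks. DESeq2 called 101 genes in this comparison.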

How the data were processed

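Values are raw counts of reads for each gene in each well, as deposited. The submitters' processing notes name STAR 2.5.2b, featureCounts 1.6.2 and the build GRCm38. A length column of the deposited table was not used. Counts of columns 1 and 2 also held those of wells whose names begin alike, which were subtracted (0 of 292880 values of the plate fell below 0, against 41.0% with the next row's wells); on this plate 32 wells, all of cerebellum replicate 1, were concerned. Wells with at least 500 genes and at most 20% mitochondrial counts were kept and summed per region sample. No doublet caller was run, as each well held 1 sorted cell. The members of the comparison and the gene lists were chosen with earlier results of these data known.

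Regions were compared with edgeR 4.0.16 in R 4.3.3 (TMM scaling, filterByExpr, robust quasi-likelihood F test, two-sided, Benjamini-Hochberg adjustment over all genes, threshold 0.05), without a term for the replicate number, and tested on simulated data. The p-values measure the spread between 4 samples per region. Levels are CPM scaled by TMM library size. Named were all called genes, the 10 smallest p in each direction, up to 3 members of highest mean CPM and every called member of each list, 5 microglia markers and, for the interactions, the 5 smallest p; some results that this rule names are not reported here. Exact permutation tests over 70 splits served cell measures and shares of cells, with cells thinned to 57459 reads. Alternatives were DESeq2 1.42.0, limma 3.58.1 voom, RLE scaling, no filter on low counts, the counts as deposited, no wells of columns 1 and 2, at least 1000 genes per cell, thinned cells, all 51 samples in 1 fit, a replicate block and each sample left out.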

Additional observations from a re-analysis of the deposited data

Results flagged for a closer look

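In these groups of 4 samples a sample is named here when its gap to the nearest other sample, as a share of the group's range, exceeded Dixon's critical value, which chance gives for about 1 in 20 groups; 10 of 168 groups did so. It held for Capn3 in cerebellum replicate 1 (441 CPM, low), Man2b1 in cerebellum replicate 2 (1789, high), P2ry13 in cerebellum replicate 4 (3693, low) and Ctsz in cerebellum replicate 2 (3882, high). In spinal cord it held for H2-DMa, H2-DMb1 and Ccl3 in replicate 1 (461, 128 and 311, all high), Trim30a in replicate 2 (73.5, low) and Psap and Cotl1 in replicate 4 (4968 and 349, both high).

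Gm10800 was the 1 gene whose region difference at 16 weeks differed from that at 3 weeks (edgeR adjusted p = 0.0415), and the sides of the plate were reversed between these ages. The 4 blank wells of the plate, which enter no comparison, held 10383 reads of Slc34a2.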

How the results depend on the processing

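For the regions at 16 weeks edgeR called 0 genes in all alternatives but 1, including each sample left out (0 to 0), and limma voom called 0; DESeq2 called 10 and edgeR without the filter on low counts 7, among them Fcrls, Gm10801, Gas2l3 and Fam118a. A filter at 100 CPM, chosen after seeing the data, left 1753 genes and 0 calls. The interaction with embryos had 113 calls by DESeq2, 5 without the filter and 0 to 1 with 1 sample left out (1 without spinal cord replicate 1 of 16 weeks). The interaction with 3 weeks had 101 by DESeq2, 28 without the filter, 0 in the counts as deposited, 0 without columns 1 and 2 and 0 to 5 with 1 sample left out (5 without cerebellum replicate 1 of 3 weeks or replicate 2 of 16 weeks). Same-numbered samples of both regions deviated together only weakly (r = 0.0337, 0.0284, 0.0271 and 0.0176, each the highest for its number), below the 0.1 taken to pair them; with a replicate block 0 genes were called between the regions (338 at an unadjusted p under 0.05 against 329), 0 in the interaction with embryos and 4 in that with 3 weeks. For shares of cells and cell measures the exact test cannot go below 0.0286 before adjustment, so their 0 passes in the alternatives say nothing of stability.

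Of 89 gene results 14 changed sign somewhere; the 19 genes given by name for their smallest p did not. Without columns 1 and 2 the log2 difference was -0.44 for Apoe, 0.03 for Ctsb and 0.01 for Cd9. With the block it was -1.01 for Apoe, -0.03 for Ccl9 and -1.30 for Ccl3. With voom it was -0.72 for Apoe, 0.03 for Cd9, -0.08 for Ccl9 and -2.09 for Ccl3. In the counts as deposited it was -0.03 for H2-K1, 0.04 for H2-DMb1 and 0.05 for Tgfbr2. In thinned cells it was 0.08 for H2-DMb1, 0.04 for Tgfbr2 and -0.04 for Mef2c, and in 1 fit of all samples -0.00 for Apoe. With 1 sample left out the difference ranged from -0.11 to 0.01 for P2ry12, -1.42 to 0.41 for Apoe, -0.18 to 0.07 for Ctsb, -0.18 to 0.08 for Cd9, -0.06 to 0.34 for H2-D1, -0.13 to 0.39 for H2-K1, -0.21 to 0.06 for H2-DMb1, -0.06 to 2.70 for H2-Ab1, -0.17 to 0.49 for Ccl9, -1.55 to 2.83 for Ccl3, -0.10 to 0.00 for Tgfbr1, -0.19 to 0.07 for Tgfbr2, -0.04 to 0.19 for Mef2c and -0.10 to 0.34 for Csf3r. The cause was not tested.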
